A study of Homo sapiens with 29 samples.

Results

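The genes followed here were 10 components and feedback regulators of the NF-kappaB pathway, chosen by name from the 28266 genes of the deposited count table. They were the DNA-binding factors NFKB1, NFKB2, REL, RELA and RELB, the IkappaB proteins NFKBIA, NFKBIE and NFKBIZ, and the ubiquitin regulators TNFAIP3 and BIRC3. All 10 passed the filter on low counts, as did 13136 genes in total.

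NF-kappaB factors are dimers that wait in the cytoplasm, held there by IkappaB proteins, until a signal from a receptor frees them to enter the nucleus. In the canonical branch, IKK kinases mark NFKBIA for destruction and release dimers of RELA with the processed product of NFKB1. In the noncanonical branch, the kinase MAP3K14 drives the processing of NFKB2, which pairs with RELB. Several inhibitors and subunits are themselves target genes of the pathway, so their transcripts serve as a readout of feedback. In senescent fibroblasts, NF-kappaB is known as a driver of the secreted inflammatory factors called the senescence-associated secretory phenotype (SASP).

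The cells were IMR90 ER:RAS, human lung fibroblasts of an established line that, by their labels, carry a retroviral ER:RAS fusion in every group. 4-hydroxytamoxifen (4OHT) switches the fusion on, and DMSO is its solvent. DMSO_siNT and 4OHT_siNT received a non-targeting siRNA, and 4OHT_siSMARCA4 received siRNA against SMARCA4, an ATPase of the SWI/SNF chromatin remodeller. Each arm used siRNA numbers 2 and 4, transfected a day ahead of induction, and RNA was taken on day 7. Each group had 6 libraries, named by siRNA number and set (a number followed by V or VM, whose meaning is not given in the sources used here). The labels do not say whether libraries came from separate cultures, so p-values measure the spread between libraries, which may be technical.

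Summed counts per library ranged from 9657309 to 18039313, and every level is in CPM, a count scaled to a fixed library size, with library sizes adjusted by TMM. SMARCA4 was at 217 ± 15.3 CPM in DMSO_siNT, 301 ± 20.9 in 4OHT_siNT and 99.0 ± 27.6 in 4OHT_siSMARCA4 (SD, n = 6 each), and every knockdown library was below every library with siNT. The fibroblast genes VIM, COL1A1 and FN1 had group means of 2642 to 10692 CPM. They are 3 of 9 fibroblast markers listed, and others were far lower with 4OHT. Mean DCN was 625 CPM in DMSO_siNT and 17.4 CPM in 4OHT_siNT (log2 fold change -5.17). Mean LUM was 93.6 and 23.5 CPM (-1.99). VIM, COL1A1 and FN1 were not called in this comparison, and 0 of the 9 were called higher. Summed over 6 immune markers the level was at most 1.81 CPM in any library, and the defining epithelial marker CDH1 had at most 2 counts in any library. Of 9 fibroblast markers, 5 were lower in 4OHT_siNT than in DMSO_siNT (55.6%, near the 52.8% of all genes called). In 4OHT_siSMARCA4, 7 of 9 were lower than in 4OHT_siNT (77.8%, against 10.6% of all genes called). Without the library DMSO_siNT 4-2V, described below, 7 of 9 (58.3% of all genes called) and 8 of 9 (24.6%) were lower. The summed level of 5 epithelial markers ranged over 50.4 to 76.7 CPM among DMSO_siNT libraries, 10.7 to 12.7 CPM among those of 4OHT_siNT and 6.95 to 10.2 CPM after knockdown, and that of 4 endothelial markers was at most 5.78 CPM in any library. The part these played in the other results was not tested. In such bulk RNA, fewer cells of a type and less RNA per cell cannot be told apart.

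The library DMSO_siNT 4-2V stood apart from its group. ESR1, which shares sequence with the ER part of the fusion, was at 29.5 CPM there and at 1034 to 1316 in the other 5 DMSO_siNT libraries. HRAS was at 436 CPM there and at 2165 to 2852 in the others. Whether this library carried the fusion was not tested, so its values may not describe the labelled cells. Among the 10 genes, RELA was at 27 CPM against 70.8 to 91.6 in the other DMSO_siNT libraries, and NFKB2 at 18.6 against 40.4 to 47.9. In the opposite direction, NFKBIA was at 99.8 CPM against 27.3 to 47.7, NFKBIE at 47.8 against 12.5 to 21.4 and REL at 9.56 against 2.04 to 3.79. The count of members called, and the values of members that this library moved, are therefore given with and without it.

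Sets were unevenly spread over the groups. 4OHT_siNT consisted of VM libraries alone, DMSO_siNT of 3 from each kind of set, and 4OHT_siSMARCA4 of 3 V libraries, 2 VM libraries and 1 whose column names set 1VM with its siRNA, a combination that no sample title has. The latter is called the unmatched library and was counted neither as V nor as VM. Any difference between V and VM is therefore mixed with the comparisons that use 4OHT_siNT, whose counts are also given for VM sets alone.

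The promoters of the 10 genes were searched for the kappaB consensus, the decamer that NF-kappaB dimers are known to recognise, on both strands and over 250 bases before to 50 after each start site. RefSeq promoters (GRCh38.p14) were matched for 8 of the 10 genes, with RELB and NFKBIE missing. A match lay in at least 1 promoter of 7 of these 8 genes (87.5%, all but RELA), compared with 17.4% of the 10330 tested genes that had a promoter and 11.3% of all 35116 promoters in the table. The genes were picked as NF-kappaB feedback genes, so this share is a description of the list. A match is a run of letters and does not show that a factor binds there.

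The 250 bases before the BIRC3 start site are shown because BIRC3 had the largest difference of the 10 after SMARCA4 knockdown, and those of NFKBIA because it is the inhibitor of the canonical branch. Both are written 5′ to 3′ on the strand of the gene, with matches in capitals, at chr11:102317234-102317483 (plus strand) and chr14:35404750-35404999 (minus strand).
BIRC3: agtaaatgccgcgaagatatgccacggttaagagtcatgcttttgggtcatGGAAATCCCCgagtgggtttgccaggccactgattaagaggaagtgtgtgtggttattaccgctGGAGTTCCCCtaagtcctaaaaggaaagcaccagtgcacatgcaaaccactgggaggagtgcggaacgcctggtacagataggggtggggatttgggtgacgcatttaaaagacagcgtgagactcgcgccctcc
NFKBIA: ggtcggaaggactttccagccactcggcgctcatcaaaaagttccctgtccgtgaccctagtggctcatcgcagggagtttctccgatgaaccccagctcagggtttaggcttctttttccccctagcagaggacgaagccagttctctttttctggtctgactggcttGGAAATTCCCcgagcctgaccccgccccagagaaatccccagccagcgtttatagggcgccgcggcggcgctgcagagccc
BIRC3 held 2 matches, starting 199 and 135 bases before the start site, and NFKBIA held 1, starting 81 bases before it.

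Shorter windows around a match are shown for the other genes whose level was followed, with overlapping matches in 1 run of capitals. The capitals that open the NFKB2 window are the cut end of matches starting 107 and 106 bases before that start site. The whole match shown there starts 78 bases before it. NFKB2 held 3 matches at start site 2 and 2 at start site 3. They lie at chr4:102501285-102501344 (NFKB1), chr10:102394475-102394534 (NFKB2, the start site numbered 2), chr2:60881502-60881561 (REL), chr3:101827742-101827801 (NFKBIZ, the start site numbered 1) and chr6:137867167-137867226 (TNFAIP3), each on the plus strand.
NFKB1: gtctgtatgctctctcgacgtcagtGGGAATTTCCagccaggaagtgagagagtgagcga
NFKB2: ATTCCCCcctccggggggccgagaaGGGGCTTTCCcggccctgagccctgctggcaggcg
REL: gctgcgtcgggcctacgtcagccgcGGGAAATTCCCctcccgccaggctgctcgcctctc
NFKBIZ: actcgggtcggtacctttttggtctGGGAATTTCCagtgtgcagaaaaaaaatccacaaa
TNFAIP3: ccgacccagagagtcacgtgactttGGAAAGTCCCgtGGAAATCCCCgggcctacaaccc
TNFAIP3 carried 2 matches within this window, starting 67 and 55 bases before its start site. The match in NFKB1 and the first one in NFKBIZ had the same 10 letters.

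**Figure D1:**
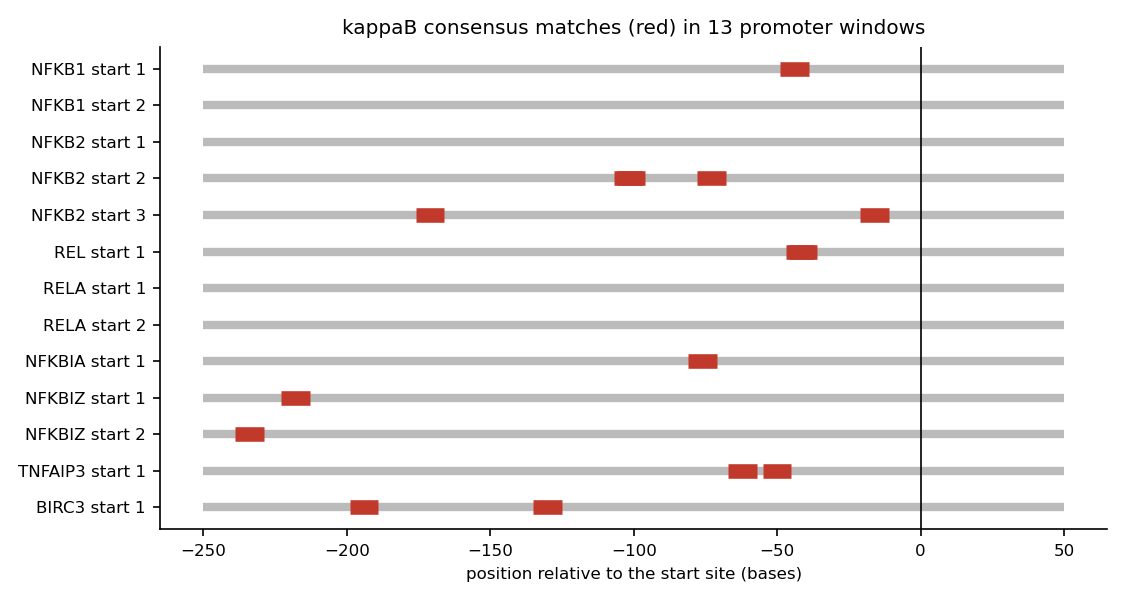
Map of the kappaB consensus matches (red) in the 13 RefSeq promoters of 8 genes, with the position in bases relative to the start site on the x axis. 9 of the 13 promoters held a match, and both RELA promoters held none.

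The first comparison asked how the 10 genes differed between cells with the fusion switched on and control cells, both with siNT. Of the 10, 9 were higher in 4OHT_siNT than in DMSO_siNT at an adjusted p under 0.05 (edgeR quasi-likelihood test, Benjamini-Hochberg over all genes tested), and REL did not pass. The background is wide: 52.8% of all genes tested were called in this comparison, 23.9% higher and 28.9% lower. The median log2 fold change of the 10 genes was 1.43, and that of all genes was -0.05. In 8 of the 10 the groups did not overlap, and 33.8% of all genes had groups that did not overlap. Without DMSO_siNT 4-2V the groups were apart for 9 of the 10 (41.2% of all genes), and again 9 passed, with 58.3% of all genes called. In VM sets alone 9 passed, with 53.5% of all genes called.

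Among the DNA-binding factors, NFKB1 encodes p105, which is processed to the p50 subunit (chr4:102501330-102617302, GRCh38, as are all gene positions here). It ranged from 24 CPM through a median of 28.2 to 36.3 in DMSO_siNT, and from 49.1 through 57.9 to 64.0 in 4OHT_siNT. Each 4OHT_siNT library lay above each DMSO_siNT library, and the log2 fold change was 0.97 ± 0.11 (SE, adjusted p = 5.54e-07). It was 0.93 without DMSO_siNT 4-2V and 1.10 in VM sets alone.

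NFKB2 encodes p100, precursor of the p52 subunit and itself an inhibitor of RELB (chr10:102394110-102402524). Its levels ran from 18.6 through 42.6 to 47.9 CPM in DMSO_siNT and from 103.0 through 113.5 to 149 CPM in 4OHT_siNT. The groups lay far apart, with a log2 fold change of 1.60 ± 0.19 (adjusted p = 6.28e-07) that was 1.46 without DMSO_siNT 4-2V and 1.51 in VM sets alone.

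RELB, its partner (chr19:45001461-45038192), was at 9.78 to 20.8 CPM in DMSO_siNT (median 15.2) and at 43.2 to 58.7 CPM in 4OHT_siNT (median 44.6). The groups did not overlap, and the log2 fold change was 1.59 ± 0.15 (adjusted p = 5.79e-08), with 1.59 when DMSO_siNT 4-2V was left out and 1.85 in VM sets alone.

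RELA encodes p65, the transactivating subunit of the canonical dimer (chr11:65653599-65663090). In DMSO_siNT it was at 27 CPM in 4-2V and at 70.8 to 91.6 CPM in the other libraries, with a group median of 79.8. In 4OHT_siNT it ranged from 95.2 through 108.4 to 132 CPM. The 2 ranges came close, and the difference was the smallest of those that passed, at a log2 fold change of 0.58 ± 0.20 (adjusted p = 0.0204). Without 4-2V it was 0.42 (adjusted p = 0.00244), and in VM sets alone 0.43. The call was lost with the set label as a block (0.59, adjusted p = 0.125) and with siRNA number 2 alone (0.21, adjusted p = 0.0511).

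REL encodes c-Rel, best known from lymphocytes (chr2:60881491-60931612), and was the least abundant of the 10, with 28 to 82 counts per library over all groups. DMSO_siNT ran from 2.04 through 3.14 to 9.56 CPM and 4OHT_siNT from 2.66 through 3.09 to 4.30 CPM. The range of 4OHT_siNT lay inside that of DMSO_siNT, and the log2 fold change was -0.21 ± 0.32 (adjusted p = 0.607). The sign depended on DMSO_siNT 4-2V, the highest library of its group: without it the value was 0.25 (adjusted p = 0.377). Of the 17129 annotated exon bases of REL, 5702 are shared with a noncoding gene on the same strand, and how such reads were assigned is not given in the sources used here. Among the other members, shared exon bases were 194 with a gene on the same strand for NFKBIZ, and 95 to 126 with an antisense gene for RELA, TNFAIP3 and BIRC3.

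Of the IkappaB proteins, NFKBIA encodes IkappaBalpha, the inhibitor that is destroyed and resynthesised in each round of signalling (chr14:35401079-35404749). It was at 27.3 to 47.7 CPM in 5 DMSO_siNT libraries, at 99.8 CPM in 4-2V and at 99.8 to 134 CPM in 4OHT_siNT (median 110.8). That 1 DMSO_siNT library reached the lowest 4OHT_siNT library to within rounding. The log2 fold change was 1.31 ± 0.24 (adjusted p = 0.000130), with 1.70 without 4-2V and 1.90 in VM sets alone.

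NFKBIE encodes IkappaBepsilon, another cytoplasmic inhibitor (chr6:44258166-44265788). Without 4-2V, which was at 47.8 CPM, DMSO_siNT libraries were at 12.5 to 21.4 CPM, below the 33.4 to 40.4 CPM of 4OHT_siNT (median 37). With it, the groups overlapped and the log2 fold change was 0.72 ± 0.23 (adjusted p = 0.0111). It was 1.08 without 4-2V and 1.29 in VM sets alone, and with siRNA number 4 alone, a fit that holds 4-2V, it did not pass (0.54, adjusted p = 0.274).

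NFKBIZ encodes IkappaBzeta, a nuclear member of the family that works with p50 as a coactivator of a subset of targets such as IL6 (chr3:101827991-101861022). It rose from a range of 18 to 35.8 CPM (median 30.3) in DMSO_siNT to one of 82.6 to 114 CPM (median 91.8) in 4OHT_siNT. The log2 fold change was 1.69 ± 0.15 (adjusted p = 2.09e-08), and no library of one group reached the other. It was 1.60 without 4-2V and 1.70 in VM sets alone.

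TNFAIP3 encodes A20, an enzyme that edits ubiquitin chains and damps signalling to IKK (chr6:137867214-137883314). It had the largest difference of the 10, from 4.37 through 7.47 to 12.4 CPM in DMSO_siNT to 38.5 through 43.6 to 48.5 CPM in 4OHT_siNT. The mean level was 5.55 times as high, with a log2 fold change of 2.47 ± 0.25 (adjusted p = 1.28e-07), or 2.41 without 4-2V and 2.65 in VM sets alone.

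BIRC3 encodes cIAP2, a ubiquitin ligase that acts at TNF receptors and, in resting cells, holds MAP3K14 low (chr11:102317484-102339403). Its levels were 4.08 through 6.30 to 11 CPM in DMSO_siNT and 15.4 through 19.5 to 23.9 CPM in 4OHT_siNT, without overlap. The log2 fold change was 1.55 ± 0.20 (adjusted p = 1.97e-06). It was 1.74 without 4-2V and 2.10 in VM sets alone. Within DMSO_siNT, BIRC3 was higher in V than in VM libraries by 0.95 ± 0.19 (log2, adjusted p = 0.0460), the 1 member called in that contrast, where 0.324% of all genes were called. Of the 3 V libraries, DMSO_siNT 4-2V was at 11 CPM and the others at 7.74 and 7.77 CPM. The 3 VM libraries were at 4.08 to 4.86 CPM, and both kinds lay below all 4OHT_siNT libraries. In the same edgeR contrast NFKBIA differed by 0.98 ± 0.25, NFKBIE by 0.95 ± 0.25, REL by 0.99 ± 0.40 and RELB by 0.47 ± 0.20. These had an unadjusted p under 0.05 but did not pass. This contrast was not fitted without 4-2V, the highest library of its group for NFKBIA, NFKBIE and REL.

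**Figure D2:**
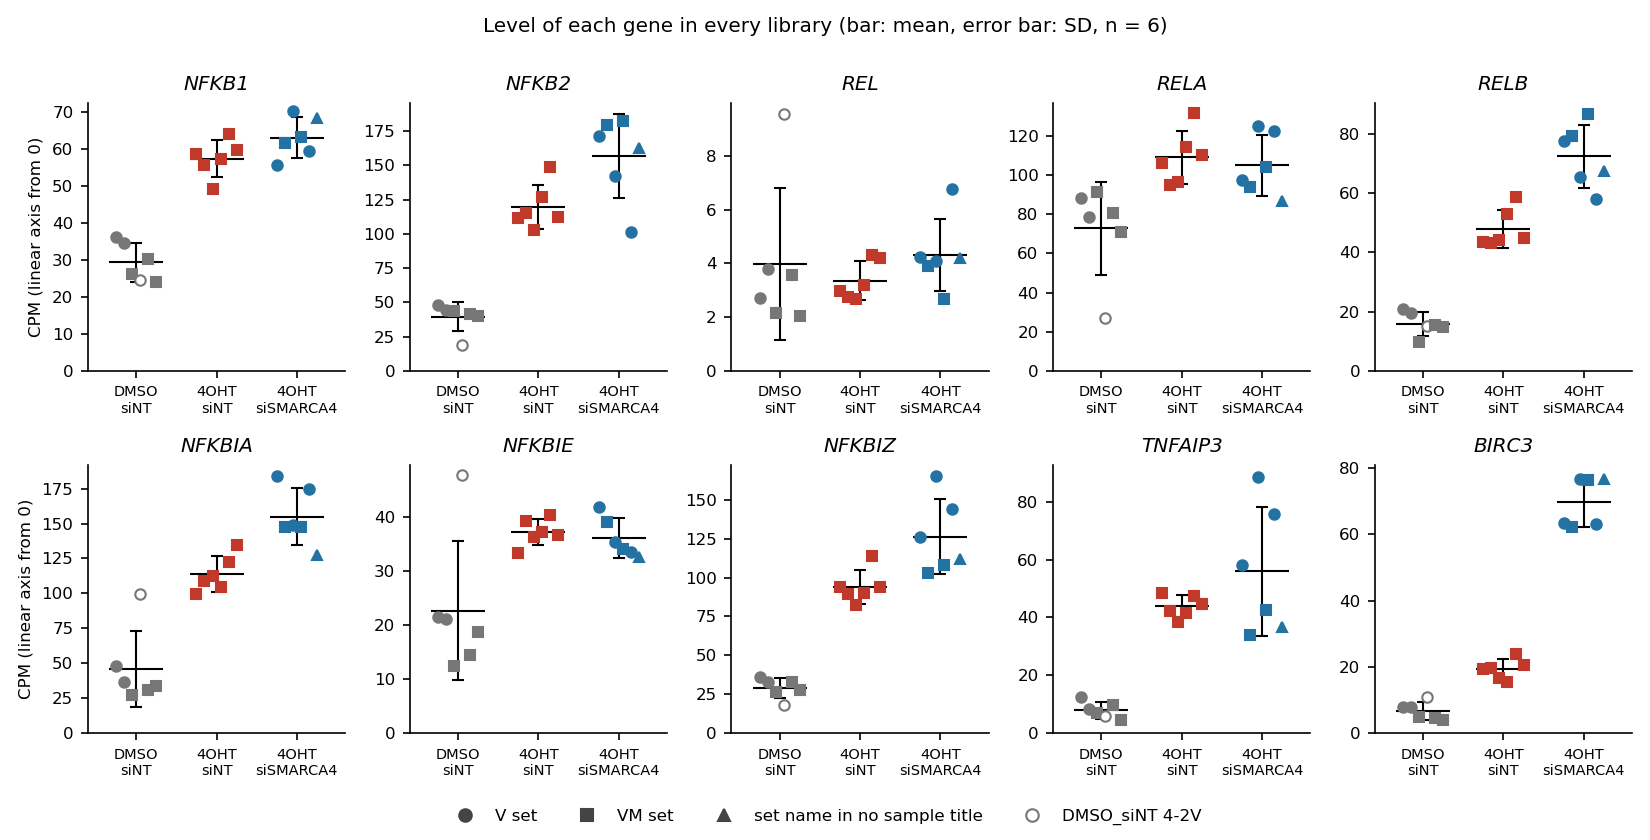
Level in CPM (y axis, linear from 0) of the 10 genes in all 18 libraries by group, with circles for V sets, squares for VM sets, a triangle for the unmatched library and an open circle for DMSO_siNT 4-2V. Bars show means and SD (n = 6). BIRC3 forms 3 separate levels, at 4.08 to 11, 15.4 to 23.9 and 62.2 to 76.8 CPM, and TNFAIP3 in 4OHT_siSMARCA4 splits by set letters.

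The second comparison asked how the genes differed when SMARCA4 was knocked down in cells with the fusion on. BIRC3 and RELB were higher in 4OHT_siSMARCA4 than in 4OHT_siNT, 2 of the 10, and the other 8 did not pass. Of all genes tested 10.6% were called, 4.99% higher and 5.65% lower. The median log2 fold change of the 10 genes was 0.38, and that of all genes was 0.01. BIRC3 was the 1 member whose groups did not overlap (11.4% of all genes).

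BIRC3 ranged from 62.2 through 69.9 to 76.8 CPM in 4OHT_siSMARCA4, against 15.4 through 19.5 to 23.9 CPM in 4OHT_siNT. Its lowest knockdown library was above its highest siNT library by a wide margin, and the ratio of the group means was 3.63. The log2 fold change was 1.86 ± 0.19 (adjusted p = 7.30e-06). In VM sets alone it was 1.83 (adjusted p = 1.99e-06), with siRNA number 2 alone it was 1.86 (adjusted p = 8.48e-06), and V and VM knockdown libraries differed by -0.04 ± 0.19 (log2, adjusted p = 0.993).

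RELB ran from 58.1 through 72.6 to 86.7 CPM in 4OHT_siSMARCA4, and 5 of the 6 knockdown libraries were above the highest 4OHT_siNT library (58.7 CPM). The log2 fold change was 0.59 ± 0.15 (adjusted p = 0.0140), and 0.77 in VM sets alone (adjusted p = 0.00253). NFKB2, the partner of RELB in the noncanonical branch, was at 101.4 through 167 to 182 CPM in 4OHT_siSMARCA4, with 4 of 6 libraries above the highest 4OHT_siNT library. Its log2 fold change of 0.39 ± 0.18 did not pass with all libraries (adjusted p = 0.186), but did in VM sets alone (0.58, adjusted p = 0.00333).

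The canonical factors showed smaller differences that did not pass. NFKB1 was at 55.5 through 62.5 to 70.2 CPM after knockdown (log2 fold change 0.14 ± 0.11, adjusted p = 0.481). RELA was at 86.7 through 100.8 to 125 CPM (-0.05 ± 0.20, adjusted p = 0.905). REL was at 2.68 through 4.15 to 6.76 CPM (0.36 ± 0.32, adjusted p = 0.523). In all 3 the ranges of the groups overlapped.

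The IkappaB genes did not pass either. NFKBIA was at 127 through 148.3 to 184 CPM, with 5 of 6 knockdown libraries above the highest 4OHT_siNT library (0.45 ± 0.23, adjusted p = 0.250). NFKBIZ was at 103.1 through 119 to 165 CPM (0.43 ± 0.15, adjusted p = 0.0705). NFKBIE was at 32.6 through 34.8 to 42 CPM, inside the spread of 4OHT_siNT but for 1 library above and 1 below it (-0.04 ± 0.22, adjusted p = 0.938).

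TNFAIP3 was at 33.8 through 50.4 to 88.6 CPM after knockdown, a wider spread than in 4OHT_siNT, with a log2 fold change of 0.35 ± 0.23 (adjusted p = 0.382). The spread followed the set letters: the 3 V knockdown libraries were at 58.1, 75.8 and 88.6 CPM, all above every 4OHT_siNT library, and the 2 VM libraries and the unmatched library, whose column also names a VM set, were at 33.8, 42.6 and 36.6 CPM. SMARCA4 itself split the same way, at 92.7 to 141 CPM in the V knockdown libraries and at 70.4 to 87.0 CPM in the other 3. Set letters also overlapped in part with siRNA number. The V libraries at 75.8 and 88.6 CPM had number 4, and the libraries at 33.8 and 36.6 CPM had number 2. Those at 58.1 CPM (V, number 2) and 42.6 CPM (VM, number 4) had the reverse. Number 2 minus number 4 was -0.67 ± 0.29 (log2, edgeR, unadjusted p = 0.0358, adjusted p = 0.757). The part that SMARCA4 level and siRNA number played in the split was not tested. The V to VM difference was 0.95 ± 0.29 on the log2 scale (unadjusted p = 0.00491, adjusted p = 0.284 in the edgeR fit). In VM sets alone the knockdown value turned to -0.22 (adjusted p = 0.427). No member was called between V and VM knockdown libraries, where 0.101% of all genes were called, and 1 member had an unadjusted p under 0.05.

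**Figure D3:**
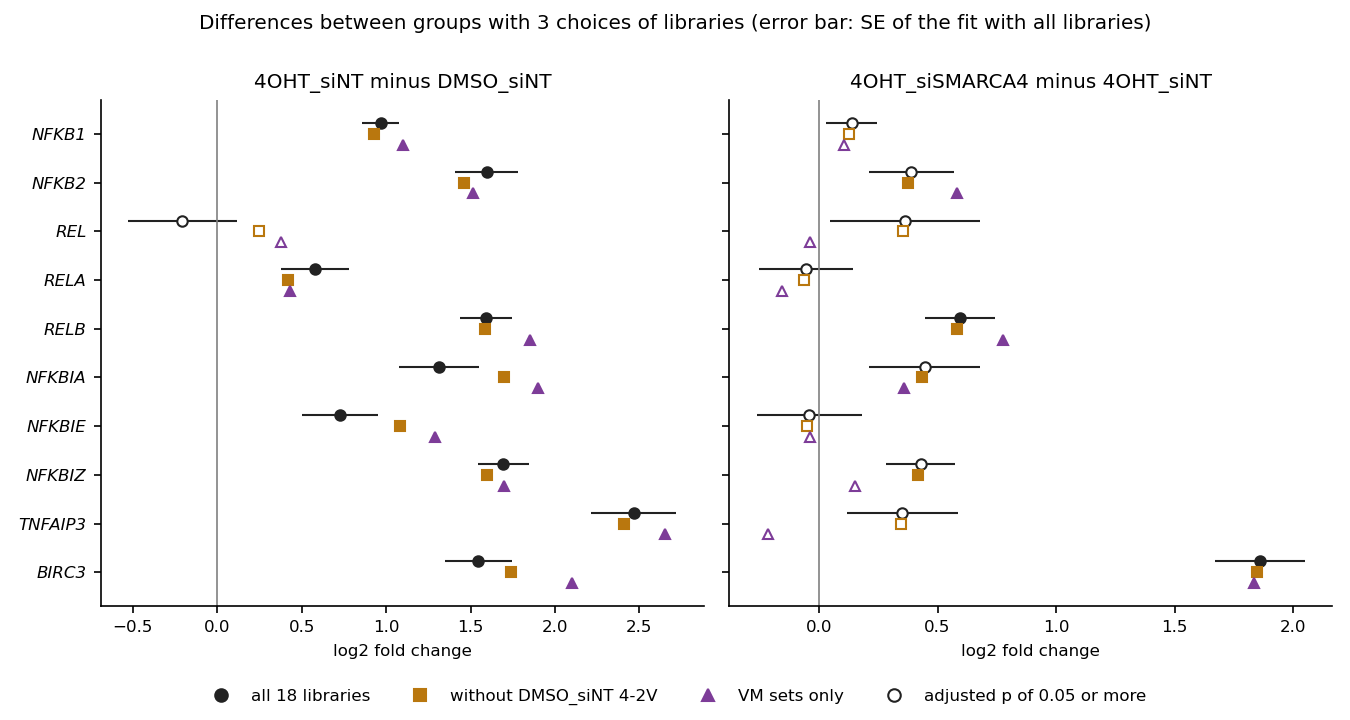
Log2 fold changes of the 10 genes (x axis) in 4OHT_siNT minus DMSO_siNT and in 4OHT_siSMARCA4 minus 4OHT_siNT, with all 18 libraries (circles with SE), without DMSO_siNT 4-2V (squares) and in VM sets only (triangles). Filled symbols passed an adjusted p of 0.05. BIRC3 stays between 1.83 and 1.86 in the second panel under all 3 choices, and TNFAIP3 moves from 0.35 to -0.22.

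How many of the 10 passed after knockdown depended on which libraries were in the fit. Leaving out DMSO_siNT 4-2V, which is in neither group compared, raised the count from 2 to 5, as NFKB2 (adjusted p = 0.0228), NFKBIA (adjusted p = 0.00979) and NFKBIZ (adjusted p = 0.0109) joined RELB and BIRC3. Their log2 fold changes moved by little, and the share of all genes called rose from 10.6% to 24.6%. With only the 2 groups compared in the fit, 5 of 10 passed and 26.9% of all genes did. VM sets alone, where the libraries compared and the fold changes differ too, gave 4 of 10 with 21% of all genes, and VM sets with the unmatched library gave 4 of 10 with 30.4%. In each of these fits NFKB1, REL, RELA, NFKBIE and TNFAIP3 did not pass.

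The siRNAs were also compared with each other. With the set label added as a block only BIRC3 passed, 1 of 10, with 1.77% of all genes called. With siRNA number 2 alone 5 of 10 passed after knockdown, and 25.7% of all genes did. With siRNA number 4 alone none of the 10 passed (0.0303% of all genes), although the BIRC3 value was 1.83 (log2, adjusted p = 0.121). That fit contains DMSO_siNT 4-2V. Without it, 6.75% of all genes passed and BIRC3 was the 1 member among them (1.84, adjusted p = 0.000253), while RELB was at 0.41 (adjusted p = 0.126). The difference between the siRNA numbers in the knockdown effect was itself tested, and no member passed (0 of 10, with 0 at an unadjusted p under 0.05, and 0.0146% of all genes). For BIRC3 this difference was 0.03 ± 0.38 (log2, number 2 minus number 4), and for TNFAIP3 it was -0.62 ± 0.42.

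No member passed in the other contrasts between siRNAs either, by edgeR or by DESeq2. Between the siNT siRNAs the share of all genes called was 0.0512% in DMSO cells and 0.0732% in 4OHT cells, with 0 members at an unadjusted p under 0.05 in both. Between the SMARCA4 siRNAs it was 0.00732%, and 1 member, TNFAIP3, had an unadjusted p under 0.05. In the effect of 4OHT by siRNA number 0% of genes were called, and 2 members, RELA and NFKB1, had an unadjusted p under 0.05.

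The third comparison set 4OHT_siSMARCA4 against DMSO_siNT, and it shares its libraries with the other 2. Of the 10 genes 9 were higher (50.5% of all genes called, 23.3% higher and 27.3% lower), and 7 had groups that did not overlap (29.6% of all genes), or 8 without DMSO_siNT 4-2V (37.8%). The log2 fold change was 3.41 ± 0.20 for BIRC3, a ratio of means of 10.5. It was 2.82 ± 0.26 for TNFAIP3, 2.19 ± 0.16 for RELB, 2.12 ± 0.15 for NFKBIZ and 1.98 ± 0.19 for NFKB2. The remaining genes that passed were NFKBIA (1.76 ± 0.24), NFKB1 (1.10 ± 0.11), NFKBIE (0.68 ± 0.23) and RELA (0.52 ± 0.20, adjusted p = 0.0349). REL was at 0.16 ± 0.32 (adjusted p = 0.703) with all libraries and at 0.60 without 4-2V, where it passed. Without that library the other values were 3.59 for BIRC3, 2.75 for TNFAIP3, 2.17 for RELB, 2.02 for NFKBIZ, 1.84 for NFKB2, 2.14 for NFKBIA, 1.06 for NFKB1, 1.03 for NFKBIE and 0.35 for RELA.

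To compare the genes with each other, CPM was divided by the length of annotated exons in kb. NFKBIA had the highest level per kb in 4OHT_siNT, at 33.5 ± 3.76 CPM per kb, and in 4OHT_siSMARCA4, at 45.7 ± 6.07, above every library of the next gene in both. In DMSO_siNT, NFKBIA at 13.5 ± 8.04 and RELA at 13.4 ± 4.33 CPM per kb overlapped, and without 4-2V the order turned, with RELA at 15.0 ± 1.51 and NFKBIA at 10.4 ± 2.30 CPM per kb (SD, n = 5). REL had the lowest mean in each group, at 0.232 ± 0.165, 0.196 ± 0.0423 and 0.252 ± 0.0779 CPM per kb. In 4OHT_siNT the order below NFKBIA was NFKB2, RELA, RELB, NFKBIZ and NFKBIE, whose neighbours in the order all overlapped (21.4 to 14.4 CPM per kb), then TNFAIP3 at 6.81, NFKB1 at 3.66 and BIRC3 at 2.57 CPM per kb. The level of TNFAIP3 was apart from both of its neighbours, NFKB1 and BIRC3 overlapped, and BIRC3 was apart from REL. In 4OHT_siSMARCA4, BIRC3 stood seventh of the 10 at 9.32 ± 1.01 CPM per kb, overlapping TNFAIP3 at 8.68 ± 3.48 and above NFKB1 at 4.02 ± 0.348. In DMSO_siNT the first neighbours that did not overlap were NFKBIZ at 4.91 and NFKB1 at 1.87 CPM per kb.

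The rest of the pathway was followed in lists of genes chosen by function, described by their counts and medians. Among 16 genes of the IKK complex and upstream kinases, 7 were higher and 2 lower in 4OHT_siNT than in DMSO_siNT, with a median log2 fold change of 0.24. This was 56.2% of the list, near the 52.8% of all genes called. The largest rises were in MAP3K8 (2.69 ± 0.24), a kinase held by p105, and in the IL-1 and Toll-like receptor kinases IRAK2 (2.25 ± 0.11) and IRAK1 (1.18 ± 0.27). IRAK4 (-1.58 ± 0.12), of the same family, and MAP3K14 (-1.01 ± 0.29), the noncanonical kinase, fell. After knockdown 3 were higher and 1 lower, 25% of the list against 10.6% of all genes (median 0.01): IRAK2 (0.54 ± 0.10), RIPK2 (0.47 ± 0.10), which signals from NOD receptors, and the IKK subunit gene CHUK (0.37 ± 0.09) rose and IKBKE (-0.56 ± 0.16) fell. Without DMSO_siNT 4-2V the counts after knockdown were 5 higher and 4 lower, 56.2% of the list, while the share of all genes rose to 24.6%.

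Of 19 receptor and adaptor genes tested, 4 were higher and 1 lower with 4OHT, 26.3% of the list against 52.8% of all genes (median 0.18). TRAF3 (1.09 ± 0.12), the adaptor that targets MAP3K14 for destruction, TICAM1 (0.88 ± 0.17), the adaptor of TLR3, and the lymphotoxin receptor gene LTBR (0.75 ± 0.21) rose, and TRAF5 (-1.99 ± 0.26) fell. After knockdown, TNFRSF1B (1.12 ± 0.27), a TNF receptor, IL1R1 (0.95 ± 0.21), the receptor for IL-1, and BIRC2 (0.68 ± 0.15), a close relative of BIRC3, rose. TLR2, with at most 16 counts in any library, fell (-1.90 ± 0.58, adjusted p = 0.0410), so 21.1% of the list was called against 10.6% of all genes, and the median was -0.03. Without DMSO_siNT 4-2V the counts with 4OHT were 5 higher and 2 lower, 36.8% of the list against 58.3% of all genes. After knockdown they were 3 higher and 2 lower, and the 26.3% of the list called was near the 24.6% of all genes.

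Among 19 other IkappaB and negative regulators, 8 were higher and 2 lower with 4OHT, 52.6% of the list against 52.8% of all genes (median 0.32). ZC3H12A (3.81 ± 0.28), a nuclease of cytokine transcripts, and the A20-binding genes TNIP3 (1.65 ± 0.35) and TNIP1 (1.47 ± 0.18) rose, while PDLIM2 (-0.96 ± 0.11) and the deubiquitinase gene CYLD (-0.58 ± 0.11) fell. TNIP3 had 3 to 8 counts in DMSO_siNT libraries, 9 to 27 in those of 4OHT_siNT and 35 to 127 after knockdown. It passed the filter only through the 4OHT groups, so its rise with 4OHT was partly fixed by the filter. After knockdown TNIP3 rose further (1.90 ± 0.28), the deubiquitinase gene OTULIN fell (-0.38 ± 0.11), and the other 17 did not pass (median 0.04). The share of the list called, 10.5%, was near the 10.6% of all genes. In this list 1 gene was higher and 3 were lower after knockdown without DMSO_siNT 4-2V (21.1% of the list, against 24.6% of all genes). In VM sets alone 2 were higher and 3 lower (26.3% of the list, against 21% of all genes).

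Both lists of target genes had larger shares called than all genes. Of 30 secreted and surface targets listed, 25 passed the filter. Of these 25, 20 were higher and 2 lower with 4OHT, 88% against 52.8% of all genes (median 4.76, and 6.38 without DMSO_siNT 4-2V). CSF3, a granulocyte growth factor, went from 0 to 4 counts per library to 601 to 2042 counts, TNFSF15, a TNF family cytokine, from 1 to 27 to 4961 to 9272 counts, and the alarmin IL1A from 0 to 3 to 682 to 1341 counts. Genes as low in DMSO_siNT as CSF3 and IL1A passed the filter only through the 4OHT groups. Their rise was thus partly fixed by the filter, and the share and median only describe the list. VCAM1 (-3.33 ± 0.59), an adhesion receptor, and CSF1 (-0.96 ± 0.21), a macrophage growth factor, fell. After knockdown 8 were higher and 1 lower, 36% against 10.6% of all genes (median 0.51), with the chemokine genes CXCL10 (2.28 ± 0.46) and CXCL2 (1.57 ± 0.23) and the cytokine gene IL6 (1.48 ± 0.29) at the top and CSF1 (-0.75 ± 0.21) lower. Without DMSO_siNT 4-2V 12 were higher and 1 lower (52% of the list, 24.6% of all genes). In VM sets alone 7 were higher and 3 lower (40% of the list, 21% of all genes), with a median of 0.15.

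Of 17 intracellular targets, 9 were higher and 5 lower with 4OHT, 82.4% of the list against 52.8% of all genes. The median was 0.28, and 0.58 without DMSO_siNT 4-2V. PTGS2 (6.71 ± 0.20), the inducible prostaglandin synthase, BCL2A1 (6.08 ± 0.31), a survival factor, and IER3 (3.17 ± 0.17) rose. BCL2A1, at 1 to 7 counts in DMSO_siNT libraries, also passed the filter only through the 4OHT groups. TNFAIP8 (-2.22 ± 0.22), KLF6 (-1.31 ± 0.19) and the mRNA decay factor gene ZFP36 (-1.14 ± 0.18) fell. After knockdown 5 were higher and 1 lower, 35.3% of the list against 10.6% of all genes (median 0.29). PTGS2 (1.61 ± 0.15), TNFAIP8 (1.29 ± 0.22) and SOD2 (1.11 ± 0.21), mitochondrial superoxide dismutase, led, and IER5 (-0.75 ± 0.13) fell. Without DMSO_siNT 4-2V 9 were higher and 3 lower after knockdown (70.6% of the list), while the share of all genes rose to 24.6%. Only 3 of 12 ligands that switch on the pathway passed the filter. IL1A and IL1B rose with 4OHT, TNFSF12 fell, and after knockdown 0 of the 3 passed with edgeR, with IL1A at an unadjusted p of 0.0158.

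**Figure D4:**
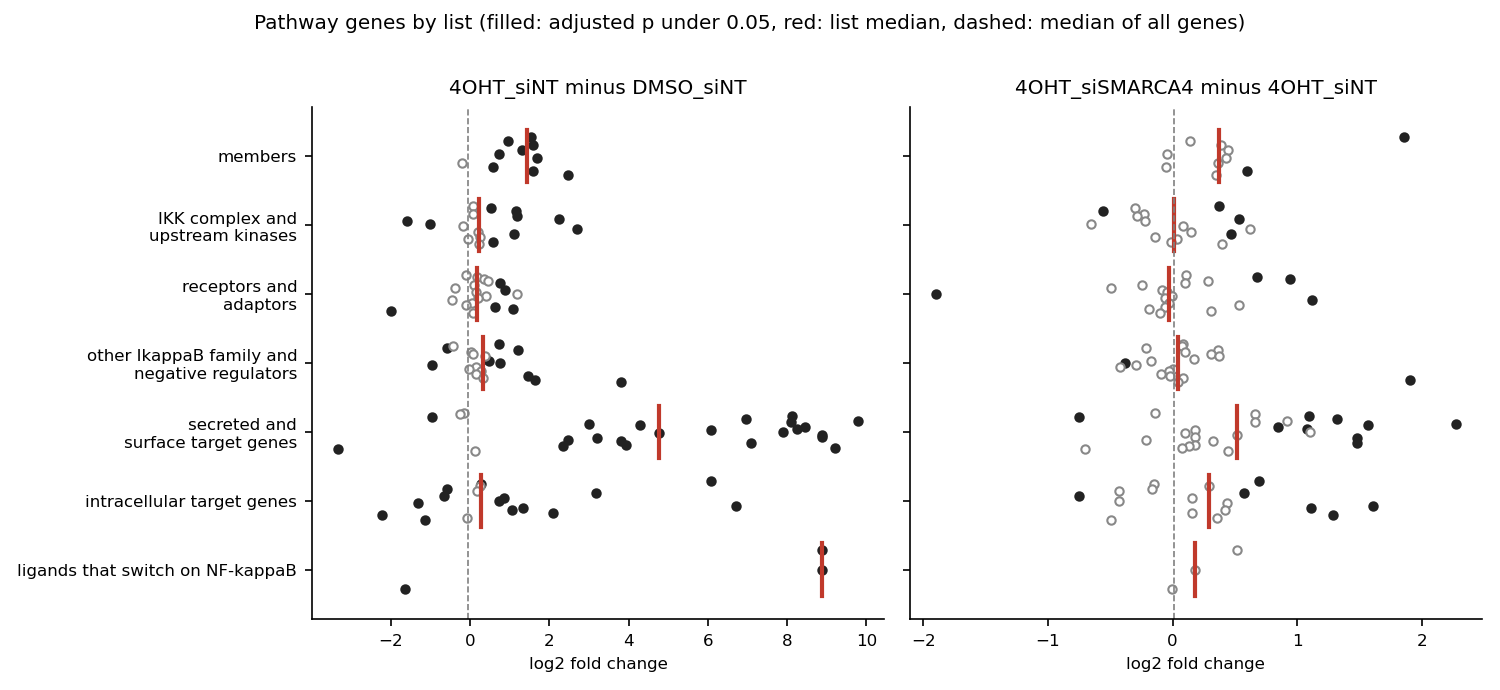
Log2 fold change (x axis) of each tested gene of the 10 members and of 6 pathway lists in both comparisons, filled where the adjusted p was under 0.05, with the list median in red and the median of all genes dashed. The secreted and surface targets have the list medians farthest from that of all genes among lists of over 3 genes, 4.76 and 0.51. The list includes genes that passed the filter only through the 4OHT groups, so the 4.76 only describes the list. In VM sets alone the knockdown median was 0.15 for this list and 0.19 for the intracellular targets.

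The genes around BIRC3 were looked at because of its difference, after the values had been seen. Within 1 Mb of BIRC3 on chromosome 11, 15 genes were tested, and 5 were higher and 1 lower in 4OHT_siSMARCA4 than in 4OHT_siNT, where 4.99% of all genes were higher. The nearest, BIRC2, 7.8 kb away, was at 0.68 ± 0.15 (adjusted p = 0.00707), and TMEM123, 56.9 kb away, at 0.42 ± 0.13 (adjusted p = 0.0419). TMEM123 was lower in 4OHT_siNT than in DMSO_siNT (-0.74 ± 0.13). In 4OHT_siSMARCA4 it was still lower than in DMSO_siNT (-0.32 ± 0.13, adjusted p = 0.0400). Farther along lie matrix metalloproteinase genes, secreted proteases of the SASP. MMP12 (2.86 ± 0.26), MMP10 (2.36 ± 0.26) and MMP3 (1.48 ± 0.23), at 431 to 523 kb, rose, MMP1 (0.32 ± 0.20, adjusted p = 0.328) and MMP7 (0.08 ± 0.36, adjusted p = 0.926) did not pass, and MMP8, at 2 to 20 counts per library over all groups, fell (-1.06 ± 0.34, adjusted p = 0.04999). Without DMSO_siNT 4-2V 6 were higher and 1 lower (11.7% of all genes higher), and in VM sets alone 5 were higher and 1 lower (8.76%), where TMEM123 did not pass (0.38, adjusted p = 0.0520) and DCUN1D5 did (0.44, adjusted p = 0.0190). YAP1, on the other side of BIRC3, was at 0.18 ± 0.13 (adjusted p = 0.422).

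**Figure D5:**
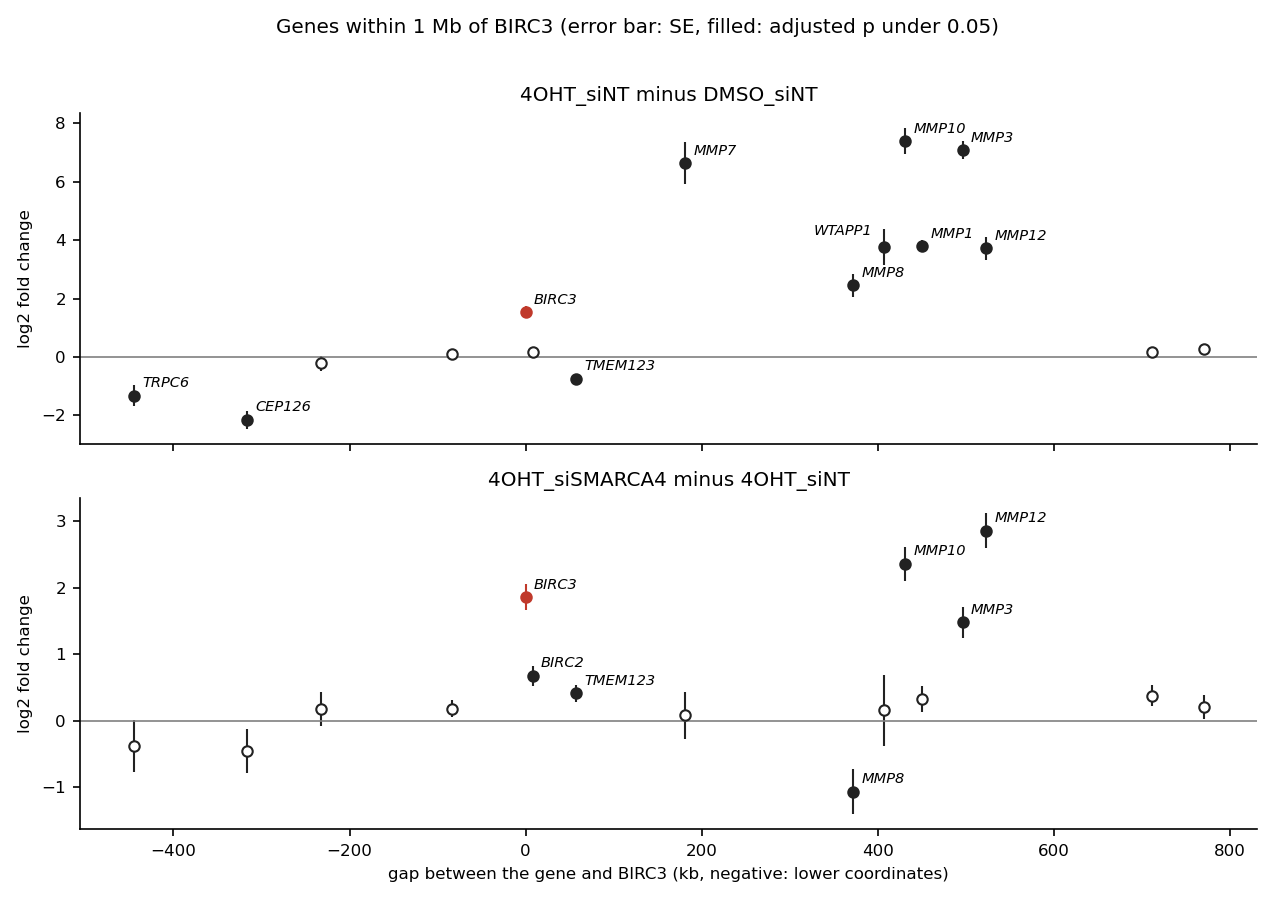
Log2 fold change with SE (y axis) of BIRC3 (red) and the 15 tested genes within 1 Mb of it, by the gap to BIRC3 in kb (x axis), in 4OHT_siNT minus DMSO_siNT (top) and 4OHT_siSMARCA4 minus 4OHT_siNT (bottom). Filled points passed an adjusted p of 0.05. BIRC2 and TMEM123 are filled above 0 only in the lower panel, and MMP3, MMP10 and MMP12 in both. TMEM123 is filled below 0 in the top panel. MMP7, MMP8, MMP10 and MMP12, with at most 8 counts in any DMSO_siNT library, passed the filter only through the 4OHT groups. Their rise in the top panel was thus partly fixed by the filter.

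For each gene, the 3 other genes with the most similar pattern over all 18 libraries were found by Pearson correlation of log2 CPM. The points share libraries and group differences, and the values are a description. Without DMSO_siNT 4-2V the r values of RELA with the genes named were 0.936 to 0.942, those of REL 0.801 to 0.886, and those of the other members with theirs at least 0.936. BIRC3 was most like SOD2 (r = 0.979), ATP2B1 (r = 0.970) and ALDH1A3 (r = 0.963), and NFKBIZ like GK (r = 0.99), GFPT2 (r = 0.989) and PTPN12 (r = 0.988). TNFAIP3 was most like PRKD3 (r = 0.980), GK (r = 0.976) and MIEF1 (r = 0.974). RELB was most like SQSTM1 (r = 0.979), NAMPT (r = 0.974) and AKR1B1 (r = 0.972), and NFKB1 like RASGRF2 (r = 0.983), TNFAIP2 (r = 0.980) and OSMR (r = 0.976). NFKBIA was closest to CMTM3 (r = 0.980), TMEM51 (r = 0.979) and IRF1 (r = 0.977), and NFKB2 to PFKFB3 (r = 0.981), CYTH1 (r = 0.980) and CLCN7 (r = 0.979). RELA was closest to ELK1 (r = 0.986), MAP1S (r = 0.985) and BAG6 (r = 0.984), and NFKBIE to SQOR (r = 0.944), RNF187 (r = 0.940) and POLD4 (r = 0.923). REL had the lowest values, with TAB2 (r = 0.890), JAM3 (r = 0.888) and CCDC18-AS1 (r = 0.853). No gene appeared for more than 1 member except GK, which was near both NFKBIZ and TNFAIP3.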

How the data were processed

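RNA sequencing of IMR90 ER:RAS cells was analysed. According to the study's methods, libraries were strand-specific, made from polyadenylated RNA and read from a single end, and the submitters' processing notes name STAR 2.7.8a, hg38 and DESeq2 1.36.0. The counting program, annotation and strand setting are not given in the sources used here, so reads of overlapping antisense genes may not be separated. The authors deposited unnormalized whole-number counts for each gene in 36 columns. The 2 lanes of each library were summed, giving 18 libraries. Of 29 labelled samples 17 matched a column, a further library matched the 4OHT_siSMARCA4 group but no sample title by its column name (set 1VM) and was kept as the unmatched library, and samples without a column were not analysed here. No pair of libraries within a group agreed within sampling noise (chi-square per degree of freedom of at least 2.33 in 45 pairs).

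Genes were filtered with filterByExpr (minimum count 10), which kept 99.9% of counts, and scaled with TMM. All 18 libraries entered 1 fit by group in edgeR 4.0.16 (R 4.3.3), tested by quasi-likelihood F test, two-sided, with Benjamini-Hochberg adjustment over all genes and a threshold of 0.05. SE were derived from the F statistic. The siRNAs were compared in a fit by group and siRNA number (13659 genes). The steps were tested on simulated data. V against VM sets, the genes near BIRC3, VM sets with the unmatched library, and siRNA number 4 without DMSO_siNT 4-2V were chosen after the data were seen. The members and lists were chosen with earlier results of these data known. Text names all members, SMARCA4, up to 3 called genes per list and direction in the first 2 comparisons, and for each member the 3 most similar genes. Alternatives were DESeq2 1.42.0, other scaling and filters, the set label as a block, subsets of libraries and leaving out each library. Gene positions, exon lengths and neighbours come from GENCODE 44 on GRCh38, whose exons may differ from those counted.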

Additional observations from a re-analysis of the deposited data

Results flagged for a closer look

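In each group of 6 libraries, the highest and the lowest log2 CPM of every member was compared with its neighbours by the gap divided by the range, with Dixon's 95% critical value for 6 values. Of 30 sets of values 2 were past it, where chance gives about 1.5. Both concerned the library DMSO_siNT 4-2V, which was far below the other DMSO_siNT libraries for NFKB2 (ratio 0.820) and for RELA (ratio 0.789). The same library was the highest of its group for NFKBIA, NFKBIE, REL and BIRC3 without passing that value. It also had the lowest ESR1 and HRAS and the lowest total count of all libraries, 9657309. The part these played was not tested.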

How the results depend on the processing

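In 4OHT_siNT minus DMSO_siNT the count of members called was 9 in every leave-one-out fit (58.3% of all genes called without DMSO_siNT 4-2V). In 4OHT_siSMARCA4 minus DMSO_siNT it was 8 to 10, with 10 members and 59.1% of all genes called without DMSO_siNT 4-2V. In the former, RELA lost its call under the replicate block by set label (0.59, adjusted p = 0.125) and in siRNA number 2 (0.21, adjusted p = 0.0511), and NFKBIE in siRNA number 4 (0.54, adjusted p = 0.274). In 4OHT_siSMARCA4 minus 4OHT_siNT the 2 members called became 1 under a replicate block by set label (BIRC3, with 1.77% of all genes called), 4 in VM sets, 4 in VM sets with the unmatched library, 5 with only the 2 groups, 5 in siRNA number 2, 0 in siRNA number 4, 1 there without DMSO_siNT 4-2V and 1 with a 2-fold minimum added. Leaving out single libraries gave 2 to 5, the 5 without DMSO_siNT 4-2V (24.6% of all genes called). Between the siNT siRNAs in DMSO cells single omissions gave 0 to 2 members. In the 4OHT effect by siRNA number they gave 0 to 1, the highest value in both without DMSO_siNT 4-2VM. The cause was not tested. Shares of all genes called in the other leave-one-out fits are not given here. Their counts are therefore not read as a result about the members.

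Set labels were checked as pairing. Across groups, 15 same-set pairs had correlations of deviations of -0.286 to 0.299 (median 0.0352, 5 over 0.1), and 81 pairs of different sets had -0.298 to 0.290 (median 0.00106, 26 over 0.1). The labels were therefore not used to pair libraries in the reported values. Under the replicate block RELB after knockdown was at 0.65 and did not pass.

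Signs turned for values that did not pass. REL in 4OHT_siNT minus DMSO_siNT was at 0.27 under the replicate block, 0.38 in VM sets, 0.38 in VM sets with the unmatched library, 0.49 in siRNA number 4 without DMSO_siNT 4-2V and, with single libraries left out, -0.33 to 0.25, the latter without DMSO_siNT 4-2V. In 4OHT_siSMARCA4 minus 4OHT_siNT, REL was at -0.30 under the block and -0.038 in VM sets, RELA at 0.080 under the block, TNFAIP3 at -0.22 in VM sets, -0.24 with the unmatched library added and -0.015 in siRNA number 2, and NFKBIE at 0.057 in siRNA number 2. In 4OHT_siSMARCA4 minus DMSO_siNT, REL was at -0.029 under the block, -0.12 in siRNA number 4 and, with single libraries left out, -0.0021 (without 4OHT_siSMARCA4 4-3V) to 0.60 (without DMSO_siNT 4-2V). RELA in this comparison lost its call under 9 alternatives of 29. With fewer than 100 counts per library, REL had the widest SE of the members.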
